A study of Triticum aestivum with 42 samples.

Results

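Among the 61179 probe sets of the Affymetrix Wheat Genome Array, 123 fell in the crown of the winter wheat Harnesk between 3 and 9 weeks of age while their level in leaf held. They were selected on the measured values themselves. In crown the higher of the 2 arrays of 9 weeks had to lie at or below 0.333 of the lower of the 2 arrays of 3 weeks, and in leaf the mean of 9 weeks had to be at least 0.67 of the mean of 3 weeks. The crown condition alone was met by 185 probe sets, or 0.302% of all, and the leaf condition left out 62 of them. The size of the crown fall and the lack of a deeper fall in leaf are therefore given as a description and carry no test.

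Harnesk plants spent their first 3 weeks in days of 16°C and nights of 14°C with 14 h of light (PAR 280). Cooling then brought them to 14°C and 10°C with 12 h of light (PAR 185) by 5 weeks, and to 8°C and 4°C with 9 h of light (PAR 95) by 9 weeks. Leaf and crown were each measured on 2 arrays per week, labelled as biological replicates and prepared from RNA of several pooled plants, and p-values rest on the spread between these pools. The controls are plants of another winter variety, Solstice, whose light and days were cut in the same way while temperatures were kept at 16°C and 14°C. Each tissue and week of the controls has a single array. A difference between Harnesk and the controls can thus come from the cooling or from the variety, and these cannot be told apart. A spring variety, Paragon, and vernalised Solstice make up the other 24 arrays of the series, whose rows do not follow the probe-set identifiers, and they are not used here.

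The crown is the base of the cereal shoot, with the shoot apical meristem, the nodes of stems that have not yet elongated and the bases of immature leaves. It survives the winter when leaves die back, and regrowth and the later ear both come from it. Vernalisation, the gain of competence to flower through prolonged cold, takes place in the dividing cells of the shoot apex. As dissected here, crown tissue held the apex together with part of the stem below it. In such bulk tissue, fewer cells of a type and less RNA per cell cannot be told apart.

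The values are linear ratios, in which the RMA value of a probe set on an array was divided by a median for that gene, so that 1 is the gene's own median. Values of different probe sets cannot be ranked as abundances, and a Harnesk level cannot be set against a control level. Changes and tissue differences are given as ratios or log2 differences within one set of arrays. Replicate arrays of Harnesk had rank correlations of 0.815 to 0.847. A list of 16 probe sets of the histone genes H2A-9, H2A-3, H2A-2 and wcH2B-8, which package DNA in dividing cells, summed to 283 to 355 on the Harnesk crown arrays and 2.32 to 3.57 on the leaf arrays. A list of 33 probe sets of CAT1, PRK, FBP and rbcl, genes of carbon fixation and photorespiration, summed to 22.4 to 24.3 in crown and 52.8 to 82.2 in leaf. The Harnesk tissue labels thus stood with their markers. Of the 33, 28 are of rbcl. On the control arrays the histone list summed to 1478 to 2075 in crown and 13.6 to 14.1 in leaf, while the sums of the leaf list, 20.5 to 32.6 in crown and 32.1 to 44.7 in leaf, overlapped between the 3-week crown and the 9-week leaf array.

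The 123 probe sets belong to 102 transcript clusters of the array design. In 17 clusters, 2 or more probe sets were selected, 38 probe sets in all, and these share sequence and are not independent observations. Ta.9671 has 5 selected probe sets and Ta.7388 has 3. By the suffix of the identifier, 78 are of the plain type, 22 are of the _x_at type, in which some probes also match other sequences, 11 are of the _s_at type, which match several transcripts, and 12 are of the _a_at type, which match alternative transcripts of a gene. The last 3 types made up 36.6% of the selected probe sets against 20.8% of the array. The member clusters hold 84 other probe sets on the array. Of these, 24 had a crown mean of 9 weeks at or below 0.5 of that of 3 weeks, which is 28.6% against 1.38% of all probe sets, and 0 had a ratio of 2 or more. Their median ratio was 0.689. They share clusters with the selected probe sets and are read on the same crown arrays, so nothing independent is read from these shares. Signal from related wheat transcripts on one probe set was not tested.

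A gene symbol was given for 10 of the 123 probe sets, which come from 7 genes. All 7 symbols are locus names without a described function, so no role is given to them. None of the 123 belongs to the 56 transcript clusters that the study lists for phase transition and MADS-box genes. Those clusters hold 152 of the 61179 probe sets, too few for their absence to be read as a result. None of the 123 matched any of 14 gene lists searched by words of function. Nothing is read from that search, because 1273 of the 61179 probe sets have a symbol, symbols seldom hold such words, and the lists matched 6 probe sets in all and none of the 16 histone probe sets above.

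Over the 123 probe sets the median of the Harnesk crown means went from 6.51 at 3 weeks through 4.35 at 5 weeks to 1.35 at 9 weeks. The fall in crown from 3 to 9 weeks, by which they were selected, ranged from 3.12-fold to 42.6-fold, with a median of 4.35-fold. In leaf the medians were 0.841, 0.734 and 0.769. The plot of the time courses shows crown values lower at 9 than at 3 weeks in every line, as the selection requires, although 5 lines were above their 3-week value at 5 weeks and 1, Ta.4016.1.S1_s_at, did not fall further after 5 weeks. Leaf values lay on both sides of no change.

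**Figure D1:**
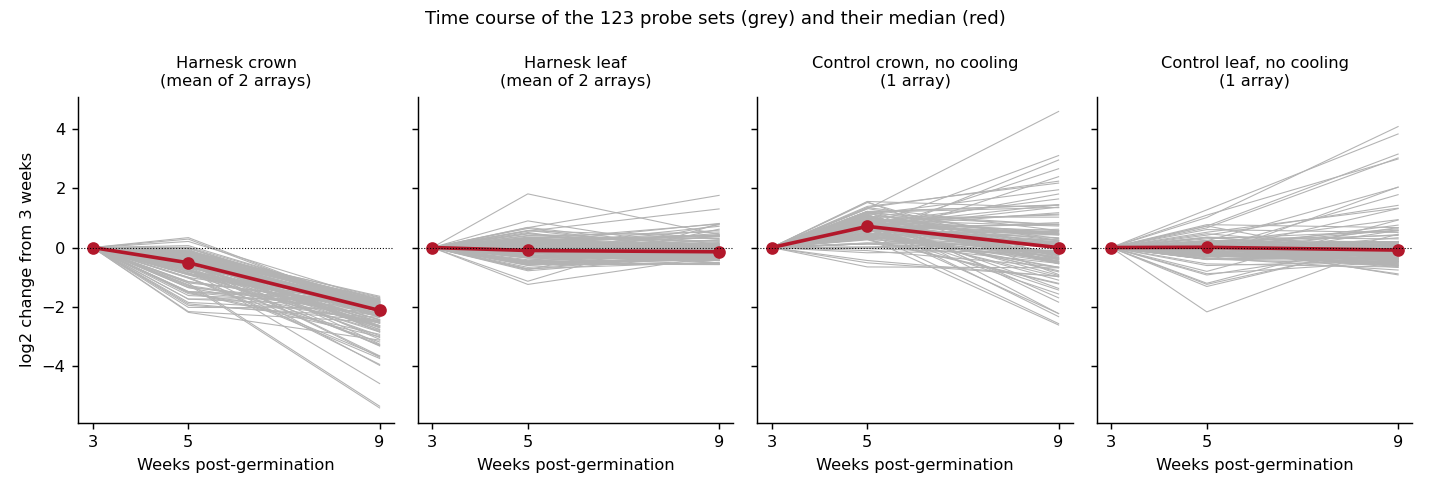
Log2 change from the 3-week value at each harvest for the 123 probe sets (grey lines) and their median (red), in Harnesk crown and leaf (means of 2 arrays) and in control crown and leaf (1 array per week). The selection fixed the fall in Harnesk crown, whose median went from 6.51 to 1.35. In Harnesk leaf it set only a lower limit on the ratio of 9 to 3 weeks. The median of the control crown ratio of 9 to 3 weeks was 0.998, with lines going both ways.

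The deepest fall was that of Ta.556.1.S1_x_at, a probe set without a gene symbol. Its crown values were 40.0 and 42.2 at 3 weeks, 16.3 and 18.2 at 5 weeks and 0.979 and 0.952 at 9 weeks, and its leaf values were 0.959 and 0.843 at 3 weeks, 0.772 and 0.695 at 5 weeks and 0.712 and 0.685 at 9 weeks. The crown mean went from 41.1 ± 1.57 (SD, n = 2) to 0.966 ± 0.0191, a 42.6-fold fall. By 9 weeks crown stood close to leaf, where the transcript had been low throughout. The second probe set of the cluster, Ta.556.1.S1_at, shows the same course, with crown values of 37.1 and 38.4 at 3 weeks, 15.7 and 17.2 at 5 weeks and 0.929 and 0.919 at 9 weeks. The third probe set of the cluster, Ta.556.2.A1_at, was not selected, with crown means of 10.4, 7.48 and 4.32, and its leaf ratio of 0.430 lay under the limit.

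The other probe sets named for their depth also lack a gene symbol. Ta.9671.2.S1_at had crown values of 39.5 and 35.6 at 3 weeks, 20.1 and 25.0 at 5 weeks and 1.65 and 1.48 at 9 weeks, a 24.1-fold fall, with leaf at 0.624 to 1.37. Ta.3162.1.S1_at had crown values of 23.7 and 23.0 at 3 weeks, 12.5 and 15.7 at 5 weeks and 1.49 and 1.55 at 9 weeks, a 15.4-fold fall, with leaf at 0.374 to 0.679. In both, all crown arrays of one week lay apart from those of the next. Ta.5399.2.S1_at and Ta.5399.1.S1_a_at fell 13.4-fold and 12.7-fold, the first with crown values of 33.1 and 33.7 at 3 weeks, 16.0 and 16.9 at 5 weeks and 2.30 and 2.69 at 9 weeks. The 2 unselected probe sets of that cluster had crown ratios of 0.834 and 1.04, so the fall was seen on 2 of its 4 probe sets. Ta.28576.1.S1_s_at had crown values of 21.6 and 22.7 at 3 weeks, 16.0 and 16.4 at 5 weeks and 2.55 and 1.88 at 9 weeks, a 10.0-fold fall, while its leaf arrays stayed at 0.0910 to 0.122.

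The 5 selected probe sets of Ta.9671 fell in crown and differed in leaf. Ta.9671.2.S1_x_at had crown values of 33.1 and 31.8 at 3 weeks, 20.6 and 24.7 at 5 weeks and 1.87 and 2.25 at 9 weeks and leaf values of 0.714 to 1.19. Ta.9671.3.S1_a_at had crown values of 6.84 and 6.70 at 3 weeks, 4.24 and 5.25 at 5 weeks and 0.543 and 0.497 at 9 weeks, and its leaf values were 5.04 and 4.45 at 3 weeks, 4.33 and 4.99 at 5 weeks and 6.42 and 6.81 at 9 weeks. Ta.9671.1.S1_x_at fell in crown from 17.1 and 19.4 to 1.57 and 1.32, and its leaf values were 19.1 and 13.8 at 3 weeks, 16.7 and 22.7 at 5 weeks and 28.2 and 28.8 at 9 weeks. On these probe sets crown and leaf began at like levels and ended 12.7-fold and 19.7-fold apart, leaf being the higher tissue. Ta.9671.3.S1_x_at went from 3.65 and 3.49 to 0.895 and 0.945 in crown, with leaf at 4.31 to 7.78. Ta.9671.3.S1_at, the only probe set of the cluster that was not selected, was nearly flat in crown, with means of 1.19, 1.28 and 1.05.

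Of the 7 genes with a symbol, LOC606359 had the deepest fall and was seen on 3 probe sets, all selected. Ta.7388.2.S1_a_at had crown values of 41.5 and 43.8 at 3 weeks, 41.0 and 41.1 at 5 weeks and 7.17 and 4.69 at 9 weeks, and its leaf values were 0.522 and 0.713 at 3 weeks, 0.623 and 0.606 at 5 weeks and 0.636 and 0.724 at 9 weeks. The crown level at 5 weeks was that of 3 weeks, and the 7.20-fold fall lay between 5 and 9 weeks. Ta.7388.1.S1_at and Ta.7388.2.S1_x_at gave 6.84-fold and 6.56-fold falls, with 5-week values of 22.9 and 22.2 and of 22.5 and 23.7 against 3-week values of 25.9 and 28.1 and of 25.9 and 27.4.

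LOC543409 (Ta.10688.1.S1_at) had crown values of 11.5 and 12.9 at 3 weeks, 8.29 and 7.15 at 5 weeks and 2.20 and 2.35 at 9 weeks. It fell 5.37-fold, with leaf at 0.581 to 0.993. Its crown change from 3 to 5 weeks was not called (limma adjusted p = 0.797). LOC542846 (Ta.261.1.S1_at) had crown values of 5.54 and 3.75 at 3 weeks, 2.58 and 2.94 at 5 weeks and 1.00 and 0.997 at 9 weeks, with leaf at 0.650 to 1.34. The 3-week arrays of this gene differed by more than those of the other weeks, but both lay above every 5-week array. Its other probe set, Ta.28758.1.S1_at, had a crown ratio of 0.726 and was not selected.

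LOC542806 (Ta.16369.1.S1_x_at) had crown values of 4.92 and 4.26 at 3 weeks, 5.32 and 6.25 at 5 weeks and 1.08 and 1.03 at 9 weeks, so that both 5-week arrays lay above both 3-week arrays before a 4.35-fold fall below the 3-week mean. Its leaf values were 0.791 and 1.03 at 3 weeks, 1.06 and 1.54 at 5 weeks and 0.649 and 0.757 at 9 weeks. The changes from 3 to 5 weeks were not called in either tissue (limma adjusted p = 1 in crown and 0.128 in leaf). The gene's other probe set, Ta.30472.1.S1_at, had means of 2.99, 3.31 and 1.35 in crown and 0.781, 0.879 and 0.332 in leaf, and both its ratios lay outside the limits.

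LOC780660 was selected on both TaAffx.2456.2.S1_s_at, with crown values of 4.01 and 4.12 at 3 weeks, 2.48 and 2.83 at 5 weeks and 0.963 and 0.966 at 9 weeks, and TaAffx.2456.1.S1_at, with crown values of 3.48 and 3.76 at 3 weeks, 1.75 and 2.15 at 5 weeks and 0.827 and 0.997 at 9 weeks. They fell 4.21-fold and 3.96-fold. A further probe set, TaAffx.2456.2.S1_at, was flat in crown (ratio 0.914), so 2 of the gene's 3 probe sets carry the fall. LOC780658 (Ta.4537.1.S1_at) had crown values of 3.57 and 3.19 at 3 weeks, 2.62 and 2.32 at 5 weeks and 0.868 and 0.915 at 9 weeks, and a second probe set, Ta.4537.2.S1_a_at, had a crown ratio of 0.424, short of the limit.

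LOC543338 (Ta.9320.1.S1_x_at) was lower in both tissues at 5 than at 3 weeks, and the tissues parted after 5 weeks. Its crown values were 2.28 and 2.71 at 3 weeks, 1.71 and 1.52 at 5 weeks and 0.631 and 0.555 at 9 weeks, and its leaf values were 1.38 and 1.04 at 3 weeks, 0.559 and 0.543 at 5 weeks and 1.90 and 2.33 at 9 weeks. Crown was the higher tissue at 3 and 5 weeks and the lower at 9 weeks. The second probe set of the gene, Ta.9320.1.S1_at, had crown means of 1.66, 1.44 and 0.721 and leaf means of 1.45, 1.04 and 2.32.

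**Figure D2:**
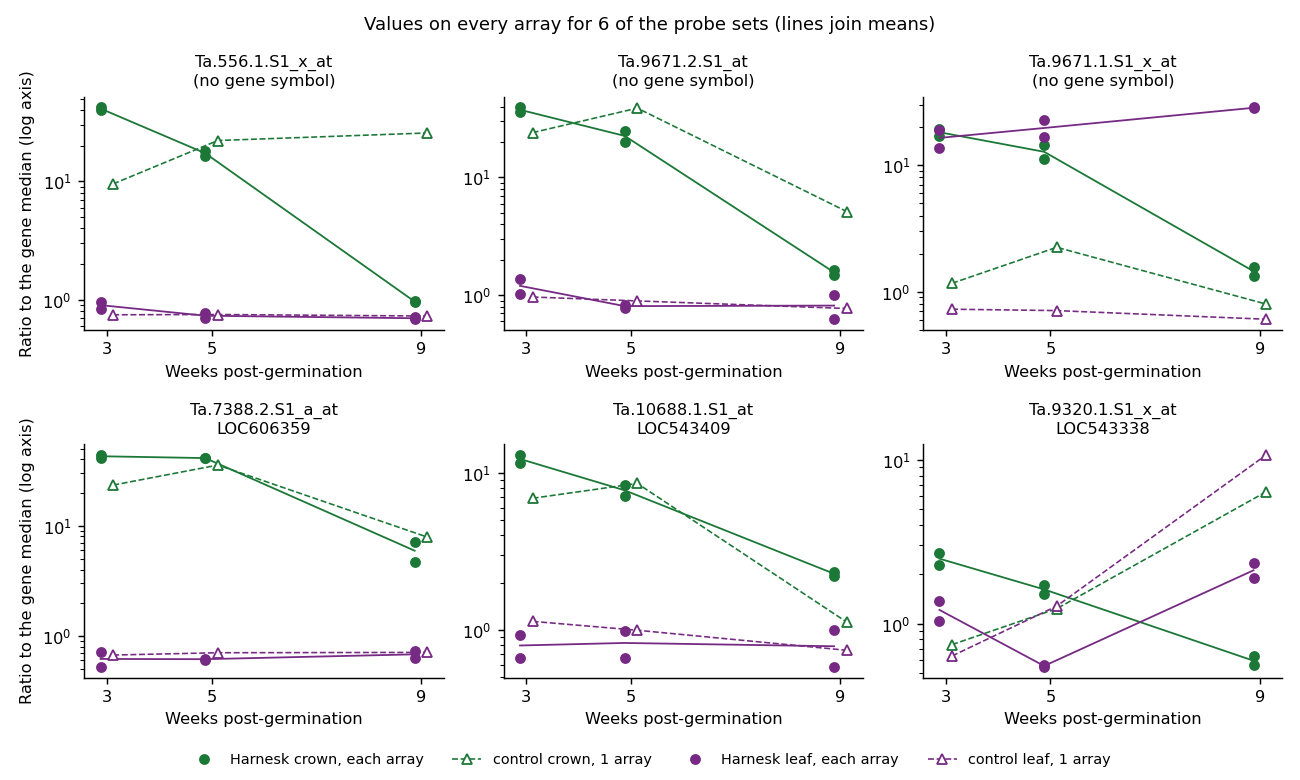
Deposited ratio to the gene median (log axis) against weeks of age for 6 probe sets, with filled circles for each Harnesk array and lines through their means, and open triangles for the single control arrays, crown in green and leaf in purple. Ta.556.1.S1_x_at fell 42.6-fold in Harnesk crown and stood at 25.6 in control crown at 9 weeks, LOC606359 and LOC543409 were low at 9 weeks in both crowns, and LOC543338 went up in both control tissues.

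Near the limits the values run on without a break. The selected probe sets closest to the crown limit, Ta.1800.1.S1_at and Ta.4016.1.S1_s_at, had ratios of the higher 9-week to the lower 3-week array of 0.331 and 0.330, and the nearest outside it, Ta.4399.1.S1_x_at and Ta.1305.1.S1_x_at, had 0.334 each. At the leaf limit, Ta.14164.1.S1_s_at and Ta.20230.1.S1_at had leaf ratios of 0.671 and 0.677, and Ta.8600.1.S1_s_at and Ta.5957.1.S1_at, just outside, had 0.665 and 0.661. Of the 123, 33 had a leaf ratio below 0.8, 39 had one above 1, and 61 met a crown limit of 0.25.

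The time course in crown asks when the fall took place, and it shares the 3-week and 9-week arrays with the selection, so counts are descriptive. Most of the fall came after 5 weeks. The share of the log2 fall reached by 5 weeks had a median of 21.4% over the 123 probe sets, and for the middle 50% of them it ran from 12.5% to 34.6%. It was under 25% in 75, from 25% to 50% in 25 and over 50% in 23. In 107 of the 123 both 5-week arrays lay between the arrays of 3 and of 9 weeks. In 13 a 5-week array reached the lower 3-week array, and in 3 one reached the higher 9-week array.

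In a limma model over the 12 Harnesk arrays, 27 of the 123 were called lower in crown at 5 than at 3 weeks (adjusted p below 0.05 and at least 2-fold) against 0.186% of all probe sets. From 5 to 9 weeks 103 were called lower, against 0.772% of all. In either step 0 were called higher (0 also at an unadjusted p under 0.05), where 0.0817% and 0.816% of all probe sets were. A selection on the arrays of 3 and 9 weeks favours falls and works against rises in both steps, so nothing is read from these shares. Leaving out single crown arrays of 3 or 5 weeks lowered the 27 to between 15 and 19, while the 103 stayed between 99 and 103 without any single array.

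The clearest early falls, picked out after their values were seen, came to rest by 5 weeks. Ta.6744.2.S1_s_at had crown values of 2.66 and 2.67 at 3 weeks, 0.669 and 0.647 at 5 weeks and 0.690 and 0.603 at 9 weeks. Ta.16716.1.S1_x_at had crown values of 9.99 and 10.7 at 3 weeks, 2.75 and 2.98 at 5 weeks and 2.41 and 2.19 at 9 weeks. In both, the 9-week arrays were little lower than the 5-week arrays or overlapped them. The latest falls followed a level or slightly higher 5-week value, picked out in the same way. Ta.9264.2.S1_a_at had crown values of 7.26 and 6.98 at 3 weeks, 8.43 and 8.91 at 5 weeks and 1.75 and 1.46 at 9 weeks, and Ta.14164.1.S1_s_at had 7.24 and 7.66 at 3 weeks, 8.40 and 8.77 at 5 weeks and 2.10 and 2.24 at 9 weeks. With LOC542806 they are among 5 probe sets whose crown mean was higher at 5 than at 3 weeks. The early group of 23 and the late group of 75 reached like depths, with median ratios of 9 to 3 weeks of 0.232 and 0.233.

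The crown against leaf comparison at 5 weeks asks in which tissue these transcripts were higher. Its 4 arrays had no part in the selection, but the selection favours transcripts that were high in crown, so it is not independent of the rule. They were mostly higher in crown. With limma on those 4 arrays, p-values adjusted by Benjamini-Hochberg across the whole array, 103 of the 123, or 83.7%, were called higher in crown (adjusted p below 0.05 and at least 2-fold) against 17.7% of all probe sets, and 7, or 5.69%, were called lower in crown against 10.7%. The other 13 were not called and all lay within 2-fold. The median difference over the 123 was 2.70 log2, against -0.15 over all probe sets, and the 103 come from 86 clusters. At 3 weeks 112 of the 123 were already at least 2-fold higher in crown by their means, and 104 of these, or 92.9%, were so at 5 weeks too. Of all 11249 probe sets at least 2-fold higher in crown at 3 weeks, 87.6% were so at 5 weeks, and no difference of the 123 from these is read from the shares.

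The difference was largest in Ta.23807.3.S1_a_at, a probe set singled out for its value, with 5-week values of 6.14 and 6.71 in crown and 0.0320 and 0.0370 in leaf, a difference of 7.54 log2 (standard error 0.14, adjusted p = 2.04e-08). Ta.28576.1.S1_s_at had 16.0 and 16.4 in crown and 0.0940 and 0.0970 in leaf, which is 7.41 log2 (standard error 0.13, adjusted p = 1.83e-08). On both probe sets the tissues were far apart, without overlap. LOC606359 was higher in crown by 6.06 log2 (standard error 0.13, adjusted p = 2.31e-08) on Ta.7388.2.S1_a_at and by 4.63 and 5.13 log2 on the other probe sets.

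All 10 probe sets with a gene symbol were called higher in crown at 5 weeks by limma, and 3 of these calls were lost with the methods' t-test after adjustment by Benjamini-Hochberg (adjusted p from 0.0518 to 0.0666). Besides LOC606359, LOC543409 differed by 3.25 log2 (standard error 0.20, adjusted p = 2.98e-06) and LOC780658 by 2.81 log2 (standard error 0.26, adjusted p = 3.26e-05). The smallest difference among the 10 was that of TaAffx.2456.1.S1_at of LOC780660, at 1.39 log2 (standard error 0.16, adjusted p = 0.000117). For LOC543338 the difference of 1.55 log2 (standard error 0.14, adjusted p = 2.58e-05) rests on a leaf level that had gone down between 3 and 5 weeks, from 1.38 and 1.04 to 0.559 and 0.543.

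Of the probe sets named for the depth of their fall, 8 of 10 were called higher in crown, from 4.35 to 7.41 log2. The exceptions are probe sets of Ta.9671. Ta.9671.3.S1_a_at differed by 0.02 log2 (standard error 0.16, adjusted p = 0.918) and Ta.9671.1.S1_x_at by -0.62 log2 (standard error 0.19, adjusted p = 0.0254), the second short of 2-fold. Ta.9671.2.S1_at of the same cluster was higher in crown by 4.80 log2 (standard error 0.15, adjusted p = 1.04e-07).

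The 7 called lower in crown are Ta.22508.1.A1_at, Ta.24785.1.A1_at, Ta.19013.1.S1_at, Ta.4360.2.S1_at, Ta.6744.2.S1_s_at, TaAffx.53053.1.S1_at and Ta.9671.3.S1_x_at, each of a different cluster and none with a gene symbol. Ta.22508.1.A1_at had crown values of 0.871 and 0.906 at 3 weeks, 0.505 and 0.451 at 5 weeks and 0.241 and 0.161 at 9 weeks and leaf values of 9.47 and 8.04 at 3 weeks, 12.2 and 12.2 at 5 weeks and 8.05 and 6.35 at 9 weeks, and at 5 weeks it differed by -4.67 log2 (standard error 0.14, adjusted p = 6.8e-08). On this probe set crown, already the lower tissue at 3 weeks, thus fell further. Ta.19013.1.S1_at had leaf values of 1.70 and 1.67 at 3 weeks, 5.92 and 5.87 at 5 weeks and 2.24 and 2.31 at 9 weeks, a peak at 5 weeks, while its crown values went from 0.790 and 0.843 to 0.201 and 0.213. In TaAffx.53053.1.S1_at the order of the tissues turned, with 2.65 and 2.66 in crown and 1.38 and 1.57 in leaf at 3 weeks, and 0.706 and 0.668 against 1.92 and 1.53 at 5 weeks.

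The ratio of crown to leaf went down from 3 to 9 weeks in all 123, as the selection requires. This narrowed the gap where crown stayed the higher tissue and widened it where crown was already the lower. At 3 weeks 112 of the 123 were at least 2-fold higher in crown, 9 lay within 2-fold and 2 were at least 2-fold lower. At 9 weeks the counts were 56, 54 and 13. The median difference of crown from leaf was 3.18 log2 at 3 weeks and 0.79 log2 at 9 weeks.

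The leaf levels of most of the 123 lay below their gene's median. The 3-week leaf mean was below 1 in 97, or 78.9%, against 40.1% of all probe sets, from 1 to 2 in 18 and at 2 or more in 8. Values are scaled to each gene's median and the selection favours transcripts high in crown, so nothing is read from that contrast. In 100 of the 123, or 81.3%, all 6 leaf arrays lay within a 2-fold range, which is near the 77.3% of all probe sets, and the leaf condition bears on 4 of those arrays. How far above the array's background such leaf values lay cannot be read from these ratios, since raw intensities were not used here. From 3 to 5 weeks in leaf, 2 were called lower and 1 was called higher, against 1.24% and 1.48% of all probe sets. They are Ta.16716.1.S1_x_at and LOC543338, both lower, and Ta.19013.1.S1_at, the one that was higher. These counts share the 3-week leaf arrays with the selection.

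In 2 of the 123 the leaf mean of 9 weeks was at least 2 times that of 3 weeks. Ta.18497.1.S1_at had leaf values of 0.887 and 0.995 at 3 weeks, 1.35 and 1.65 at 5 weeks and 3.31 and 3.06 at 9 weeks and crown values of 2.69 and 3.17 at 3 weeks, 1.27 and 1.29 at 5 weeks and 0.744 and 0.809 at 9 weeks. Crown and leaf crossed between 3 and 9 weeks. Ta.10933.1.S1_at had leaf values of 0.667 and 0.758 at 3 weeks, 1.21 and 0.883 at 5 weeks and 1.70 and 1.81 at 9 weeks and crown values of 9.90 and 10.8 at 3 weeks, 8.10 and 9.14 at 5 weeks and 2.82 and 2.97 at 9 weeks, so crown remained the higher tissue at 9 weeks.

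Of the 62 probe sets that fell in crown but missed the leaf limit, 26, or 41.9%, were at least 2-fold higher in crown at 5 weeks by their means, against 104, or 84.6%, of the 123. The difference was not tested. The leaf limit divides these groups, so the difference is not independent of the rule, and nothing is read from it. The median share of the log2 fall reached by 5 weeks was 32.4% in the 62.

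The control crown arrays ask whether the fall is seen when light and day length decline at a steady temperature. With 1 array per week there is no replicate check and no test, and the answer depends on which array serves as the baseline. From 3 to 9 weeks, 13 of the 123, or 10.6%, lay at or below 0.5 in control crown, against 4.86% of all probe sets, and 20, or 16.3%, lay at or above 2, against 11.5%. The median ratio was 0.998. From 5 to 9 weeks, 41, or 33.3%, lay at or below 0.5 against 1.37% of all, and the median ratio was 0.681. Of the 62 probe sets that missed the leaf limit, 21, or 33.9%, lay at or below 0.5 from 5 to 9 weeks, and 14 from 3 to 9 weeks. Such shares are thus not particular to the 123. Rank correlations between control crown arrays were 0.676 for 3 with 5 weeks, 0.619 for 5 with 9 weeks and 0.370 for 3 with 9 weeks. The 9-week array, on which all of these ratios rest, was thus no closer to the others than the 3-week array. Its values for single probe sets are open to doubt too. In spread the control crown array of 3 weeks stands apart, as the middle 50% of its probe sets spanned 0.781 log2, where Harnesk crown arrays spanned 0.338 to 0.505. Its sum of the leaf marker list was 32.6, against 24.3 and 20.5 on the later control crown arrays, and its histone sum was 1506 against 2075 and 1478. On it 117 of the 123 lay below their 5-week control value, where 58.9% of all probe sets did. The part of tissue composition in this was not tested.

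Against both baselines, 13 of the 123 lay at or below 0.5 in control crown at 9 weeks, where 0.296% of all probe sets did. LOC606359, on 2 of its 3 probe sets, and LOC543409 are among them. On Ta.7388.2.S1_a_at control crown read 23.4, 35.5 and 7.88 at 3, 5 and 9 weeks. LOC543409 read 6.87, 8.54 and 1.12. Its ratio of 9 to 3 weeks was 0.163 in control crown and 0.186 in Harnesk crown. In these genes crown was low at 9 weeks without cooling too.

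Of the 5 selected Ta.9671 probe sets 3 are also in this group, Ta.9671.2.S1_at at 24.0, 38.8 and 5.13 in control crown, with Ta.9671.2.S1_x_at and Ta.9671.3.S1_a_at. The others include TaAffx.43393.1.S1_at, picked out for the size of its Harnesk fall, which had Harnesk crown values of 38.3 and 39.2 at 3 weeks, 31.3 and 35.4 at 5 weeks and 4.16 and 3.95 at 9 weeks and control crown values of 11.8, 27.4 and 3.27. Ta.13168.1.S1_a_at, with the lowest control ratio of 9 to 5 weeks among the 123, read 15.4, 34.0 and 3.29 in control crown. Its Harnesk crown values were 10.5 and 10.5 at 3 weeks, 8.52 and 8.48 at 5 weeks and 3.09 and 2.94 at 9 weeks.

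The pair of probe sets with the deepest falls in Harnesk crown was not lower in control crown at 9 weeks than earlier. Those next in depth, Ta.9671.2.S1_at and Ta.9671.2.S1_x_at, were lower there at 9 weeks, as given above. Ta.556.1.S1_x_at read 9.51, 22.1 and 25.6 in control crown and Ta.556.1.S1_at read 10.8, 24.5 and 27.4. The third probe set of the cluster, Ta.556.2.A1_at, read 5.67, 8.28 and 4.55, lowest at 9 weeks. On the selected pair control crown at 9 weeks thus stood above its earlier values, where Harnesk crown had fallen 42.6-fold. Ta.5399.2.S1_at read 55.0, 84.3 and 57.4, with a 9-week value close to that of 3 weeks. Ta.3162.1.S1_at lay between, at 8.98, 15.8 and 4.67. The Harnesk crown ratio of 9 to 3 weeks lay below the control crown ratio of 9 to 3 weeks in 120 of the 123. It lay below the control crown ratio of 9 to 5 weeks, an unlike baseline, in 119. The selection of the deepest Harnesk falls favours both counts. The share over all probe sets was not taken, so nothing is read from them.

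**Figure D3:**
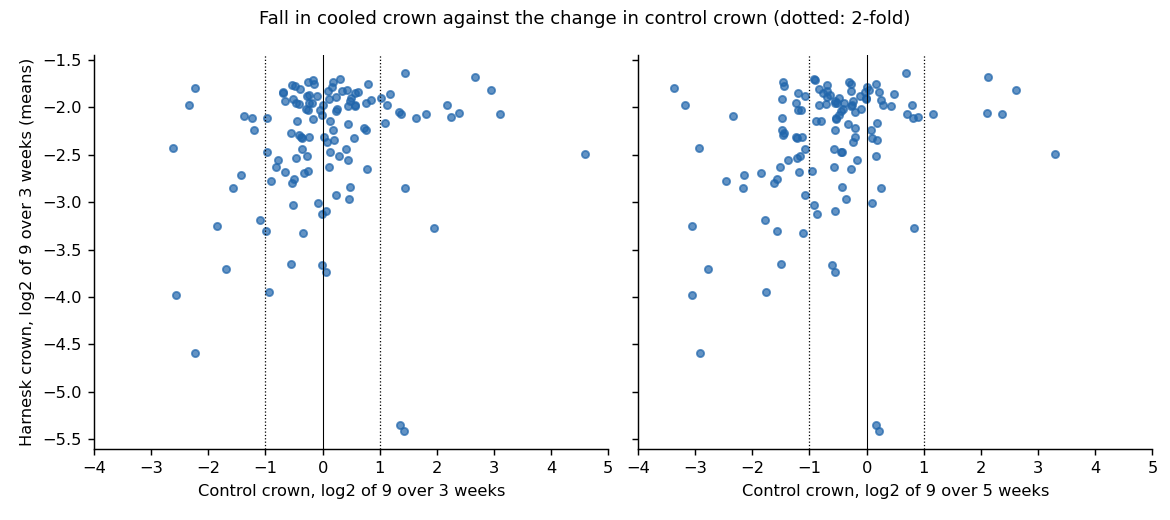
Log2 ratio of 9 to 3 weeks in Harnesk crown (means of 2 arrays) against the log2 ratio in control crown (1 array per week), with 3 weeks (left) and 5 weeks (right) as the control baseline, 1 point for each of the 123 probe sets and dotted lines at 2-fold. Points at or below 0.5 in control crown number 13 on the left and 41 on the right, and the pair of lowest points is Ta.556.

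On both baselines 6 of the 123, or 4.88%, lay at or above 2 in control crown at 9 weeks, against 3.66% of all probe sets. Ta.21267.1.S1_s_at read 0.457, 1.13 and 11.0 in control crown, while its Harnesk crown values were 4.16 and 4.84 at 3 weeks, 2.64 and 2.68 at 5 weeks and 0.812 and 0.790 at 9 weeks. LOC543338 read 0.744, 1.23 and 6.39 in control crown and 0.634, 1.28 and 10.7 in control leaf. In that gene both control tissues and Harnesk leaf were highest at 9 weeks, and Harnesk crown was lowest.

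For the other genes with a symbol, control crown read 1.21, 2.31 and 2.00 for LOC542846, 1.69, 2.17 and 1.50 for LOC542806 and 1.99, 3.01 and 3.56 for LOC780658. LOC780660 read 1.31, 2.05 and 3.36 on TaAffx.2456.2.S1_s_at and 1.54, 2.54 and 2.10 on TaAffx.2456.1.S1_at. None of these 5 probe sets was at or below 0.5 of an earlier control value at 9 weeks. The other probe set of LOC542806, Ta.30472.1.S1_at, read 1.99, 2.58 and 1.25, and its 9-week value lay under 0.5 of its 5-week value.

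Most of these transcripts were higher in crown in the control plants too, by 1 array per tissue and week and with no test. At 5 weeks control crown was at least 2-fold above control leaf in 96 of the 123, or 78.0%, against 14.3% of all probe sets, and 91 of them are among the 103 called higher in Harnesk crown. In 68 the control ratio of crown to leaf was at least 2 at 3, 5 and 9 weeks alike. The share over all probe sets was not taken for this count, which also rests on the doubtful 9-week control leaf array, so nothing is read from it. Of the 7 called lower in Harnesk crown, 3 were at or below 0.5 in the control and 0 were at or above 2.

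In control leaf 0 of the 123 lay at or below 0.5 at 9 weeks relative to 3 weeks, against 3.36% of all probe sets, and 4 did so at 5 weeks, against 1.86%. The 9-week control leaf array has rank correlations of 0.0922 and 0.110 with the other control leaf arrays, which correlate at 0.780 with each other, so its values for single probe sets are open to doubt. The 4 at 5 weeks, Ta.24785.1.A1_at, TaAffx.53053.1.S1_at, Ta.10303.1.S1_at and Ta.4360.2.S1_at, were back near or above their 3-week control leaf values at 9 weeks. For Ta.24785.1.A1_at control leaf read 2.46, 0.546 and 2.79.

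Among the Harnesk crown arrays the histone marker list summed to 335 to 355 at 3 weeks, 299 to 318 at 5 weeks and 283 to 287 at 9 weeks, and the leaf marker list summed to 22.5 to 22.8, 22.4 to 22.5 and 23.6 to 24.3. The part of tissue composition in the falls was not tested.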

How the data were processed

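The authors extracted image data with the Affymetrix software, normalised CEL files per chip by RMA (version not given in the sources used here) and divided each gene by its median in GeneSpring, and the deposited value is that ratio on a linear scale. It has 3 decimals and a lowest value of 0.01. Of 42 arrays, 12 of Harnesk and 6 controls were used, and the rows of the other 24 do not follow the identifiers. The 111 array control probe sets were left out, log2 was taken without further normalisation, and limma 3.58.1 in R 4.3.3 was run over all 61179 others with Benjamini-Hochberg adjustment, after it was tested on simulated data. The number of arrays limits the precision. Symbols came from the platform annotation through the RefSeq gene table (IWGSC CS RefSeq v2.1). Named probe sets are those with a symbol and the 10 others with the lowest crown ratio of 9 to 3 weeks, and any others were chosen after their values were seen. The members and lists were chosen with earlier results of these data known.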

Additional observations from a re-analysis of the deposited data

Results flagged for a closer look

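In 6 of the 123 probe sets the 9-week control crown array lay at least 2-fold above both earlier control arrays, while both Harnesk crown arrays of 9 weeks lay below both of 3 weeks, as the selection requires. These are 4.88% of the 123, near the 3.66% of all probe sets that were so in control crown. With 1 control array per week the difference between cooled and control plants was not tested, and variety and cooling cannot be told apart. The ratio of 9 to 5 weeks in control crown was 9.76 for Ta.21267.1.S1_s_at, 6.09 for Ta.10366.1.S1_at, 5.18 for LOC543338 (Ta.9320.1.S1_x_at), 4.34 for TaAffx.120321.1.A1_at, 4.28 for Ta.18594.1.S1_at and 2.24 for Ta.28220.1.S1_at. In Harnesk crown the same probe sets fell 5.61-fold, 3.54-fold, 4.20-fold, 3.20-fold, 4.16-fold and 4.20-fold from 3 to 9 weeks. Control leaf values at 3, 5 and 9 weeks were 0.667, 1.61 and 9.49 for Ta.18594.1.S1_at and 0.678, 1.07 and 5.51 for Ta.28220.1.S1_at, so in these and in LOC543338 the 9-week control leaf array was high as well.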

How the results depend on the processing

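The number of probe sets meeting the rule was 123, with 136 after quantile normalisation (86 of them shared), 140 after median centring, 61 at a crown limit of 0.25 and 90 at a leaf limit of 0.8. Without any single Harnesk array it was 118 to 156. The count called higher in crown at 5 weeks was 103 and stayed at 102 to 104 under quantile normalisation, median centring, a trend in the variance prior, all 12 Harnesk arrays or leaving out single arrays (102 to 103). It was 100 of the 119 tested with the 25% of probe sets lowest in mean log2 ratio left out, and 100 of 123 by the methods' t-test, or 88 after Benjamini-Hochberg adjustment. That adjusted test also took the 7 called lower to 3, and it lost the calls on 3 probe sets with a symbol, Ta.16369.1.S1_x_at (adjusted p = 0.0555), TaAffx.2456.1.S1_at (0.0518) and Ta.4537.1.S1_at (0.0666). Of the named probe sets only Ta.9671.3.S1_a_at, which was not called, changed sign. It went from 0.02 log2 to -0.08 log2 without leaf replicate 1 and -0.13 log2 without crown replicate 2, and was 0.17 log2 at most without single arrays. With the replicate number as a block the count was 103, and the block changed no call on any named probe set. Replicate numbers were not taken as pairs, since differences between replicates correlated over 0.1 in 0 of 15 pairs of conditions.

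Without single arrays, the 27 called lower in crown at 5 weeks became 15 to 27, the 103 called lower from 5 to 9 weeks became 99 to 103, and the 2 called lower in leaf at 5 weeks became 2 to 4. After quantile normalisation 0 were called lower in leaf at 5 weeks (28 had an unadjusted p under 0.05 as deposited). In control crown the 13 at or below 0.5 became 41 against 5 weeks (1.37% of all) and 7 at or below 0.333 (0.961% of all). In control leaf the 0 became 13 after quantile normalisation, or 10.6% where 9.1% of all probe sets were, and 2 against 5 weeks, where 2.94% of all were. The causes were not tested. The lone control arrays and the 2 arrays per condition limit all of these values.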
